A study of Homo sapiens with 8 samples.

Results

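HT-only EZH2 at H3K4me3 without H3K27me3 is a class of 640 genomic regions in the diffuse large B cell lymphoma line HT. The regions are EZH2 islands, stretches of chromatin enriched for EZH2 in ChIP-seq. They were selected by overlap of at least 1 bp between the deposited island lists: each lay on an autosome, overlapped no EZH2 island of the second line SUDHL6, overlapped an H3K4me3 island of HT and overlapped no H3K27me3 island of HT. Of 2523 HT EZH2 islands, 2508 lay on chromosomes 1 to 22. Of these, 2219 had no SUDHL6 EZH2, 782 of the 2219 had HT H3K4me3, and 640 of the 782 had no HT H3K27me3. The class made up 25.5% of the autosomal HT EZH2 islands (exact Clopper-Pearson 95% interval 23.8 to 27.3%).

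Polycomb repressive complex 2 trimethylates lysine 27 of histone H3 through its enzymatic subunit EZH2. The product, H3K27me3, marks repressed chromatin, whereas trimethylated lysine 4 (H3K4me3) marks the promoters of active or poised genes. In germinal centre B cells, from which many of these lymphomas derive, EZH2 is highly expressed and holds differentiation genes in check. EZH2 at H3K4me3 without called H3K27me3 is thus a setting in which the enzyme, but not its product, was detected beside a promoter mark.

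HT and SUDHL6 are established cell lines, both grown in RPMI medium with serum and without any treatment. The labels give no genotype for either line. SUDHL6 is known to carry an activating mutation in the catalytic domain of EZH2, as background that these files do not show. H3K27me3, EZH2 and H3K4me3 were each measured in 1 library per line, and the 2 inputs were not analysed here. With a single library per line and antibody, differences between the lines carry no replicate error and were not tested, and a difference between libraries cannot be told apart from one between lines. All intervals of shares cover counting error only, and neighbouring islands are not independent. Because the depth of the libraries is unknown, a missing island is not absence of a protein or mark. Islands carry hg19 positions, counted from 1, and are not assigned to genes, since no annotation of that build was used here.

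The EZH2 islands of the class were of ordinary width and below average in signal density. Their median width was 3600 bp (quartiles 2700 and 5250 bp, full range 600 bp to 31.8 kb), the same as the median of 3600 bp over all autosomal HT EZH2 islands. The score is the authors' own value per island. No source used here states its meaning, and it serves only to rank islands within 1 list. Its median was 50 in the class and 53 over the whole list. Per kb of island the class had a median score of 13.97 (quartiles 12.4 and 16.1), against 14.9 over the whole list.

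Signal density was ordered by the marks present. HT-only EZH2 islands with both marks had a median score per kb of 16.9 (142 islands), and those with H3K27me3 alone had 16.3 (833 islands). Islands with neither mark had 12.7 (604 islands), below the 13.97 of the class, and EZH2 islands present in both lines had 18 (289 islands). The quartile ranges overlapped: 12.4 to 16.1 in the class, 14.4 to 19.6 with both marks, 14.05 to 20 with H3K27me3 alone and 11.2 to 14.9 with neither mark. EZH2 at H3K4me3 alone was therefore not the weakest class by density.

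**Figure D1:**
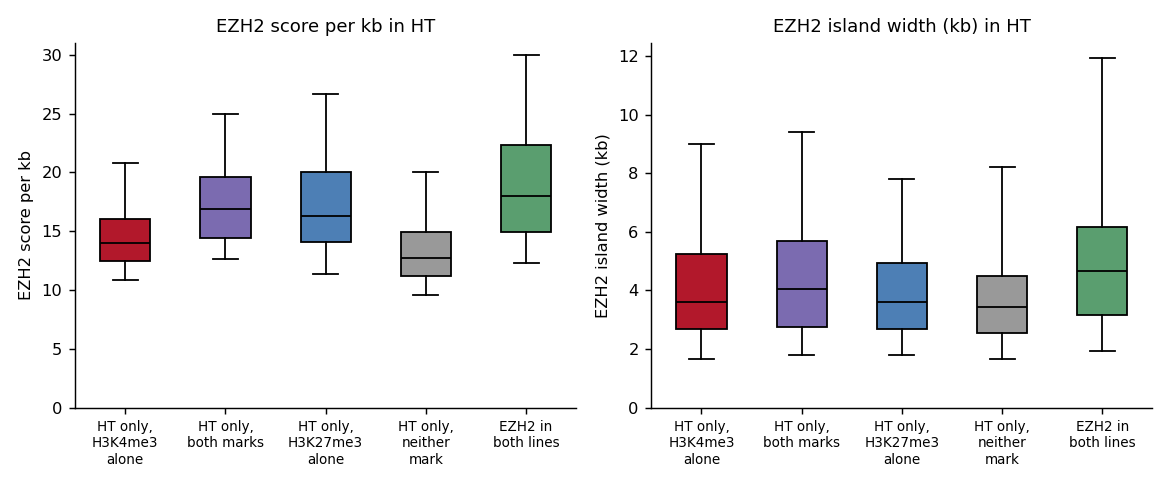
Score per kb (left, the authors' score divided by island width) and width in kb (right) of HT EZH2 islands in 5 classes, with the class described here first. Lines in the boxes are medians, boxes span the quartiles and whiskers the 5th to 95th percentiles over islands of 1 library. The median score per kb of the class, 13.97, lies between that of islands with neither mark (12.7) and that of islands with H3K27me3 alone (16.3).

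Among the HT EZH2 islands with H3K4me3 and no H3K27me3, 640 of 671 had no SUDHL6 EZH2, which is 95.4% (93.5 to 96.8%). Of the remaining HT EZH2 islands, 1579 of 1837 had none, or 86.0% (84.3 to 87.5%). Both shares restate a criterion of the choice and are descriptions. SUDHL6 held fewer regions of the corresponding kind. There, 115 of 1500 autosomal EZH2 islands lacked HT EZH2, had SUDHL6 H3K4me3 and had no SUDHL6 H3K27me3, or 7.67% (6.37 to 9.13%).

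EZH2 lay over most of the H3K4me3 island and usually reached beyond it on at least 1 side. Each region was set against the HT H3K4me3 island with which it shared most bases. Cover of the EZH2 island counts all HT H3K4me3 islands over it. Cover of the H3K4me3 island counts all HT EZH2 islands over it. H3K4me3 covered a median of 56.3% of the EZH2 island (quartiles 38.1 and 77.0%), and EZH2 covered a median of 90.9% of the H3K4me3 island (quartiles 66.4 and 100%). The EZH2 island was the wider of the pair in 451 regions (70.5%, 66.8 to 74.0%), equal in 31 and narrower in 158. Its median overhang beyond the H3K4me3 island, both sides added, was 1650 bp.

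The relative positions fell into a few plain arrangements. In 276 regions (43.1%, 39.2 to 47.1%) the H3K4me3 island lay inside a wider EZH2 island, and in 62 (9.69%, 7.51 to 12.2%) EZH2 lay inside a wider H3K4me3 island. Another 299 (46.7%, 42.8 to 50.7%) were staggered, with EZH2 reaching past H3K4me3 on 1 side and falling short on the other, and 3 had the same ends. Where EZH2 enclosed H3K4me3, the median widths were 4650 bp for EZH2 and 1950 bp for H3K4me3. Where EZH2 was enclosed, they were 2025 and 3300 bp, and the median EZH2 score per kb was 17.6, against 13.3 in the enclosing arrangement. The order of the widths follows from how the arrangements are defined. Median EZH2 score per kb also differed by EZH2 width. It was 18.9 below 2 kb, 14.5 at 2 to 4 kb, 12.6 at 4 to 6 kb and 14.7 at 10 kb or wider. The part of width in the density contrast was not tested.

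Neither side of the H3K4me3 island was favoured. Centres lay a median of 750 bp apart, within 1 kb in 395 regions (61.7%, 57.8 to 65.5%), and the EZH2 centre fell inside the H3K4me3 island in 438 (68.4%, 64.7 to 72.0%). The signed offset had a median of 0 bp (quartiles -750 and 750 bp). Strand was not known, so upstream and downstream cannot be told apart. At 1.5 kb from the H3K4me3 centre, EZH2 of the class still covered 57.5% of positions on the side of lower coordinates and 58.3% on the other, against 33.8% and 38.6% for HT H3K4me3. At 3 kb EZH2 covered 25.8% and 24.1%, and HT H3K4me3 covered 4.53% and 5.47%.

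**Figure D2:**
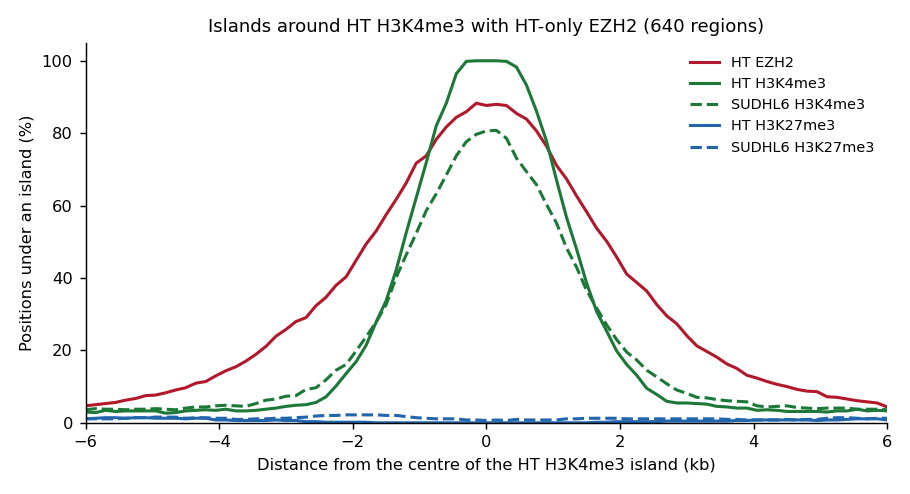
Share of the 640 regions whose position at a given distance from the centre of the HT H3K4me3 island (x axis, kb, by rising coordinate and without regard to strand) lies under an island of each list (y axis, percent). HT EZH2 is the EZH2 of these regions only. The EZH2 curve is lower at the centre (87.7%) and wider than that of HT H3K4me3, and SUDHL6 H3K4me3 has its peak at the same place (80.6%).

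Almost every region met 1 H3K4me3 island: 617 had 1, 22 had 2 and 1 had 3. They touched 662 HT H3K4me3 islands in all, of which 2 held more than 1 region. The class therefore took up 6.25% of the 10593 autosomal H3K4me3 islands of HT.

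H3K4me3 filled less of the EZH2 island where both marks were present, and a similar share in the corresponding SUDHL6 class. HT-only EZH2 islands with both marks had a median of 43.3% of EZH2 under H3K4me3, against 56.3% here. The H3K4me3 island was wholly under EZH2 in 58.5% of them, against 43.6% here. Their EZH2 was also wider, with a median of 4050 bp against 3600 bp here. Their H3K4me3 was narrower, with 2100 bp against 2550 bp. The part of these widths in the contrast was not tested. In the corresponding SUDHL6 class of 115 islands, the median share of EZH2 under SUDHL6 H3K4me3 was 55.0%, close to the 56.3% of the HT class. Its centres lay a median of 675 bp apart, against 750 bp in HT.

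H3K4me3 at the regions was wider and denser than elsewhere in HT. The 662 islands had a median width of 2550 bp (quartiles 1800 and 3450 bp), against 2100 bp (quartiles 1500 and 2850 bp) for the 9716 HT H3K4me3 islands without HT EZH2. Their median score was 96, against 71, and their median score per kb was 37.0, against 34.2. Within the HT H3K4me3 list this put them at a median percentile of 69.0 by score, 66.1 by width and 58.2 by score per kb. H3K4me3 islands at other HT EZH2 (215 islands) had a median score per kb of 28.4. Wider islands are also met more often by any overlap rule, so width is partly set by the choice.

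The share of H3K4me3 islands that carried such EZH2 was higher among wide islands. H3K4me3 islands narrower than 1 kb carried it in 3.23% of cases (2.12 to 4.69%). The share was 4.82% (4.19 to 5.51%) at widths of 1 to 2 kb and 6.10% (5.28 to 7.0%) at 2 to 3 kb. From 3 to 4 kb it was 8.46% (7.16 to 9.92%), and from 4 to 6 kb 12.6% (10.2 to 15.4%). At 6 kb or wider it was 11.6% (7.44 to 17.1%), from 22 of 189 islands, so the last step cannot be ordered at this count. Over 4 bands of H3K4me3 score per kb with about equal numbers of islands, the share was 3.89%, 6.35%, 6.75% and 8.0% from the lowest to the highest. Within the class, the EZH2 score per kb hardly followed that of H3K4me3 (Spearman rho = 0.08, Pearson r = 0.09 across 640 regions of the same pair of libraries, which share base composition and are not replicates).

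Most of this H3K4me3 was present in SUDHL6 as well. SUDHL6 H3K4me3 overlapped 552 of the 640 EZH2 islands, or 86.3% (83.3 to 88.8%), against 39.8% of all HT EZH2 islands. The share was 83.1% (75.9 to 88.9%) for HT-only EZH2 with both marks, 20.9% (18.2 to 23.8%) with H3K27me3 alone and 11.6% (9.15 to 14.4%) with neither mark. The high share thus went with HT H3K4me3, a criterion of the choice, and was as high where H3K27me3 was present too. Counted from the H3K4me3 islands, 570 of 662 had a SUDHL6 counterpart, or 86.1% (83.2 to 88.6%), against 74.5% of all HT H3K4me3 islands and 73.5% (72.6 to 74.4%) of those without HT EZH2.

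**Figure D3:**
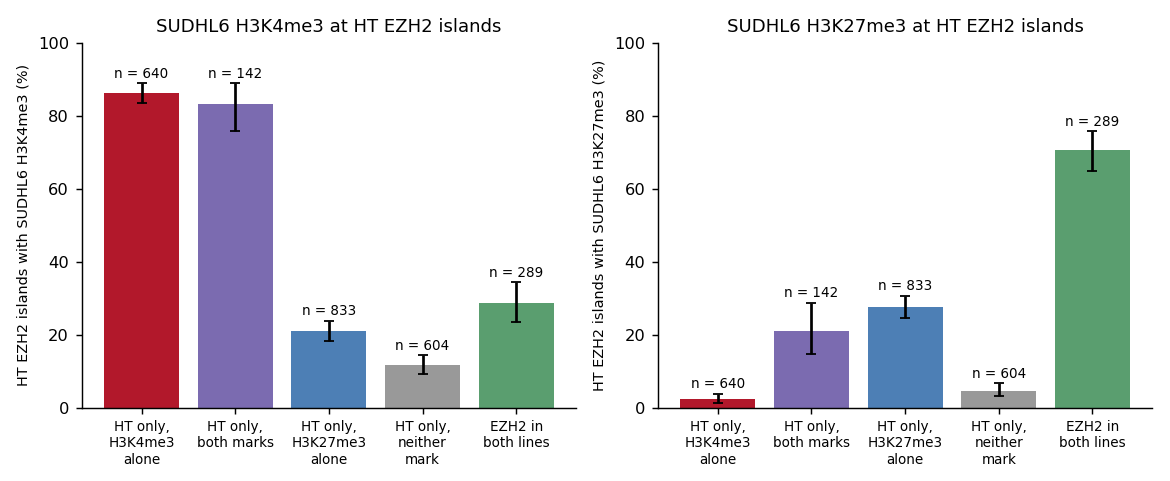
Percent of HT EZH2 islands that overlap SUDHL6 H3K4me3 (left) and SUDHL6 H3K27me3 (right), in 5 classes with the class described here first; n is the number of islands and error bars are exact 95% intervals of the share. In the class the shares are 86.3% and 2.34%, against 28.7% and 70.6% where EZH2 is present in both lines. The class was chosen by HT H3K4me3 and by lack of HT H3K27me3 and SUDHL6 EZH2. These contrasts are therefore partly set by the choice.

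At equal width, SUDHL6 H3K4me3 was present more often in the class than without HT EZH2 at every width below 6 kb. The intervals were apart from 1 to 3 kb and overlapped at other widths. Below 1 kb the shares were 73.1% (52.2 to 88.4%) in the class and 51.9% (48.3 to 55.5%) without HT EZH2, from 26 islands of the class. From 1 to 2 kb, SUDHL6 H3K4me3 was present at 78.2% (71.9 to 83.7%) of the islands of the class and at 65.5% (64.0 to 67.0%) of those without HT EZH2. From 2 to 3 kb the shares were 88.9% (83.5 to 93.0%) and 79.9% (78.3 to 81.3%). From 3 to 4 kb they were 92.8% (87.1 to 96.5%) and 87.9% (86.1 to 89.6%), and from 4 to 6 kb 92.9% (85.3 to 97.4%) and 86.0% (82.9 to 88.8%). At 6 kb or wider they were 81.8% (59.7 to 94.8%) and 82.1% (75.1 to 87.7%). H3K4me3 of the class was also denser at equal width, with a median percentile of score per kb of 61.0 against 51.7 from 2 to 3 kb.

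At matched density, SUDHL6 H3K4me3 was more frequent in the class in each of the 4 bands, with intervals apart only in the lowest. In the lowest of the 4 bands of HT H3K4me3 score per kb, 53 of 103 islands of the class had SUDHL6 H3K4me3, or 51.5% (41.4 to 61.4%), against 29.3% (27.5 to 31.2%) of 2462 islands without HT EZH2. In the second band the shares were 83.3% (76.8 to 88.6%) and 80.0% (78.3 to 81.6%), and in the third 94.4% (90.0 to 97.3%) and 90.6% (89.3 to 91.7%). In the highest band they were 98.1% (95.2 to 99.5%) and 94.9% (93.9 to 95.7%). The intervals overlapped in each of these 3 bands, which does not exclude a difference, and none was tested. Islands of the class were wider than those without HT EZH2 in the lowest band (medians 2400 and 1950 bp). The part of width and density in the difference was not tested jointly.

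**Figure D4:**
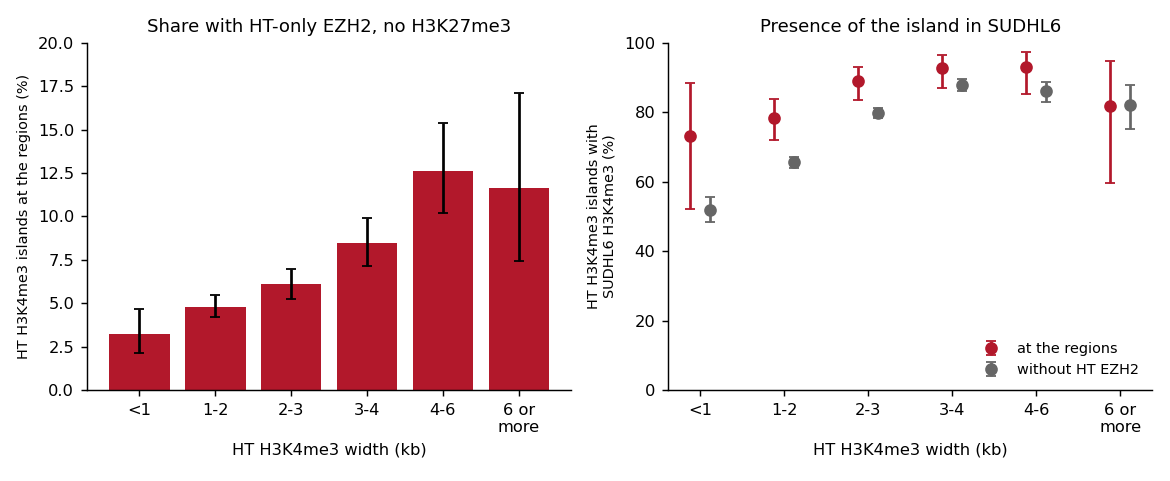
Left, percent of HT H3K4me3 islands that carry HT-only EZH2 without H3K27me3, by H3K4me3 width in kb. Right, percent of HT H3K4me3 islands with an overlapping SUDHL6 H3K4me3 island, at the regions and without HT EZH2; error bars are exact 95% intervals. The left share is 4.82% from 1 to 2 kb and 12.6% from 4 to 6 kb. On the right the class lies above the others at each width below 6 kb. The intervals are apart only from 1 to 3 kb, where the class is at 78.2% and 88.9%.

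The width of the shared H3K4me3 islands was on balance equal in the lines. Over the 570 pairs the HT islands had a median width of 2700 bp and the SUDHL6 islands 2550 bp, and the median log2 ratio of paired widths, HT over SUDHL6, was 0.00 (quartiles -0.50 and 0.43). The HT island was wider in 257 pairs (45.1%, 40.9 to 49.3%), against 46.8% of all 7889 autosomal pairs, and equal in 40. A width at least 2-fold greater in HT was found in 49 pairs (8.60%, 6.43 to 11.2%), against 10.1% of all pairs. A width at least 2-fold smaller was found in 55 (9.65%, 7.35 to 12.4%), against 12.3% of all pairs. These shares are near or below the background, so no excess of H3K4me3 islands broader in HT was seen. At equal HT width the median ratio was lower in the class than without HT EZH2 at every width from 1 kb up, and higher below 1 kb. The rise of the ratios with HT width follows in part from sorting by HT width, their numerator. Below 1 kb the median ratio was -0.49 in the class (19 pairs) and -1.12 without HT EZH2. At 1 to 2 kb the medians were -0.42 and -0.29, and at 2 to 3 kb -0.04 and 0.10. At 3 to 4 kb they were 0.07 and 0.31, at 4 to 6 kb 0.37 and 0.55, and at 6 kb or wider 0.65 and 0.92.

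Widths of the pairs were loosely related, described here across regions of the same libraries. Spearman rho between HT and SUDHL6 width was 0.49 over the 554 regions whose H3K4me3 island had a counterpart, and 0.37 over all 7889 pairs. The SUDHL6 counterparts ranked high in their own list as well, at a median percentile of 74.6 by score, 66.9 by width and 69.1 by score per kb. Counterparts of HT islands without EZH2 had medians of 67.8, 57.7 and 68.3 in the same list. At the regions, H3K4me3 of SUDHL6 was thus wide for its list without being denser than other shared islands.

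**Figure D5:**
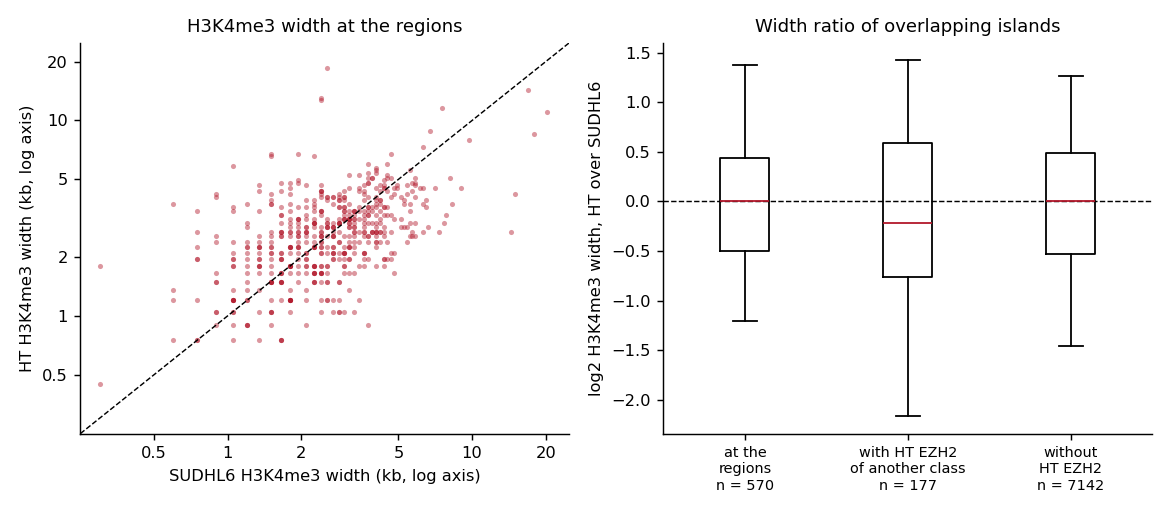
Left, width in kb (log axes) of the HT H3K4me3 island against that of its SUDHL6 counterpart for the 554 regions with one; the dashed line marks equal width. Right, log2 width ratio HT over SUDHL6 for H3K4me3 islands at the regions, with HT EZH2 of another class and without HT EZH2; boxes span the quartiles with the median in red, and whiskers the 5th to 95th percentiles. The medians are 0.00, -0.22 and 0.00.

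The 88 regions without SUDHL6 H3K4me3 stood over weaker HT H3K4me3. Their H3K4me3 islands had a median width of 1950 bp and a median score of 48, against 2700 bp and 104 for the 552 regions with it. By score per kb they lay at a median percentile of 24.6 of the HT list, against 66.6. This was not particular to the class. The 2574 HT H3K4me3 islands with neither HT EZH2 nor a SUDHL6 counterpart had medians of 1650 bp and percentile 15.6. The 92 islands of the class without a counterpart had medians of 1950 bp and percentile 24.1. EZH2 itself differed less, with median widths of 4050 and 3600 bp and median scores per kb of 13.3 and 14.1. H3K4me3 covered 41.1% of the EZH2 island in the median without the SUDHL6 mark and 59.1% with it.

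SUDHL6 H3K27me3 was rare at the regions. It overlapped 15 of 640 (2.34%, 1.32 to 3.84%), against 20.2% of all HT EZH2 islands. The choice left out islands with SUDHL6 EZH2, of which 70.6% had SUDHL6 H3K27me3, and islands with HT H3K27me3. The contrast with all HT EZH2 islands is therefore partly set by the choice. For HT-only EZH2 with both marks the share was 21.1% (14.7 to 28.8%), with H3K27me3 alone 27.5% (24.5 to 30.7%) and with neither mark 4.64% (3.10 to 6.63%). The interval of the class overlapped that of islands with neither mark. Counted from H3K4me3, 12 of the 662 islands at the regions met SUDHL6 H3K27me3 (1.81%, 0.940 to 3.14%), against 3.12% of all HT H3K4me3 islands. The share without HT EZH2 was 2.85% (2.53 to 3.20%). Overlap of intervals does not exclude a difference, and none was tested.

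Taken by both SUDHL6 marks, 545 regions had H3K4me3 alone (85.2%, 82.2 to 87.8%), 80 had neither, 8 had H3K27me3 alone and 7 had both. Absence of HT H3K27me3 is a criterion of the choice, so its distance in HT is a description. The nearest HT H3K27me3 island lay a median of 79.8 kb away (quartiles 30.6 and 172.9 kb), within 10 kb in 51 regions (7.97%, 5.99 to 10.3%) and over 100 kb away in 267. For islands with neither mark the median was 97.5 kb. The nearest SUDHL6 EZH2 lay a median of 567 kb away, against 520 kb with both marks, 571 kb with H3K27me3 alone and 578 kb with neither mark.

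The 15 regions with SUDHL6 H3K27me3 varied in how the mark lay over them. It covered a median of 38.1% of the EZH2 island (range 8.70 to 100%) and reached the HT H3K4me3 island in 11. The widest such H3K27me3 island, from 50700601 to 50712900 of chromosome 22 (12300 bp), enclosed an EZH2 island from 50706901 to 50710200 with a 2100 bp H3K4me3 island in HT and none in SUDHL6. HT had H3K4me3 and EZH2 there, and SUDHL6 had H3K27me3. On chromosome 11 from 3078301 to 3079650, H3K4me3 was called in both lines, over 1800 bp in HT and over 2400 bp in SUDHL6. A SUDHL6 H3K27me3 island of 7950 bp covered 44.4% of the EZH2 island. On chromosome 7 from 27187951 to 27192150, HT had an H3K4me3 island of 1050 bp, SUDHL6 had none, and SUDHL6 H3K27me3 covered 60.7% of the EZH2 island. HT H3K27me3 lay 1050 bp away there, so the region is close to the edge of the class.

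The regions of highest EZH2 score were broad and enclosed H3K4me3. Score was not divided by width here, so wide islands rank higher and enclose H3K4me3 more often in part by construction. By score per kb the 5 highest lay between percentiles 30.3 and 71.8 of the HT EZH2 list. The first spanned 111459751 to 111491100 of chromosome 11 (31.35 kb, score 455) around an H3K4me3 island of 6.75 kb in HT and 1950 bp in SUDHL6. The second lay on chromosome 2 from 54960301 to 54986850 (26.55 kb, score 422), with a single HT H3K4me3 island of 1.05 kb that covered 3.95% of it and had no SUDHL6 counterpart, although SUDHL6 H3K4me3 lay elsewhere within the EZH2 island. The widest region of all, also on chromosome 2, ran from 55225351 to 55257150 (31.8 kb, score 419) and held 2 HT H3K4me3 islands and no SUDHL6 H3K4me3. A further one lay on chromosome 2 from 54930751 to 54944250 (13.5 kb), again with 2 HT and no SUDHL6 H3K4me3 islands. These 3 broad regions of chromosome 2 lay within 1 segment of under 1 Mb.

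Some regions named for the widest HT H3K4me3 had narrow H3K4me3 in SUDHL6. Naming by HT H3K4me3 width favours a high ratio of HT over SUDHL6 width. On chromosome 10, EZH2 from 75531151 to 75549600 and its H3K4me3 island were both 18.45 kb wide, each covering 83.7% of the other, and the SUDHL6 H3K4me3 island was 2550 bp wide (log2 ratio 2.86). On chromosome 11 from 119073001 to 119092500 (19.5 kb), H3K4me3 spanned 12.75 kb in HT but 2400 bp in SUDHL6 (log2 ratio 2.41). On chromosome 11 from 110298901 to 110305350, EZH2 of 6.45 kb lay wholly inside H3K4me3 of 13.05 kb, with 2400 bp in SUDHL6 (log2 ratio 2.44). The pattern was not general. On chromosome 11 from 108088801 to 108114150 (25.35 kb), the widths were 7.35 kb in HT and 6300 bp in SUDHL6, with an HT H3K4me3 score per kb at percentile 97.5 of its list.

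Some wide H3K4me3 islands were wide in both lines. On chromosome 1 from 148841551 to 148844250, EZH2 of 2.7 kb lay inside H3K4me3 of 14.4 kb in HT. The SUDHL6 counterpart was 16950 bp wide, SUDHL6 H3K4me3 covered 61.1% of the EZH2 island, and a SUDHL6 EZH2 island began 1500 bp away. On chromosome 1 from 16830001 to 16843500, the widths were 11.55 kb in HT and 7500 bp in SUDHL6. Over the 24 regions of 10 kb or wider, 18 H3K4me3 islands had a counterpart, their median log2 width ratio was 0.30, and 6 were at least 2-fold wider in HT (33.3%, 13.3 to 59.0%). Of the pairs at narrower regions, 42 of 536 were at least 2-fold wider in HT (7.84%, 5.71 to 10.4%), with a median ratio of 0.00. HT H3K4me3 itself was wider at the broad regions, with a median of 4425 bp against 2550 bp, and its part in this difference was not tested. HT H3K4me3 islands without HT EZH2 had a median log2 width ratio of 0.55 at 4 to 6 kb and 0.92 at 6 kb or wider. High ratios at wide HT islands were thus not particular to the broad regions.

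The densest regions were small. Score per kb divides by width, and no island of the list scored below 21, so small islands rank higher in part by construction. On chromosome 2 from 97303951 to 97304850, EZH2 had 42.2 per kb over 0.9 kb and covered 50% of an HT H3K4me3 island of 1.2 kb. On chromosome 20 from 60696451 to 60697050, EZH2 of 0.6 kb with 35.0 per kb lay inside an H3K4me3 island of 2.25 kb in HT. The SUDHL6 counterpart was 1500 bp wide, and SUDHL6 H3K4me3 covered 25% of the EZH2 island. The EZH2 score there was 21, the lowest of the autosomal list, and that of the chromosome 2 region was 38. Below 2 kb, 74 regions had a median of 18.9 per kb, H3K4me3 covered a median of 82.6% of them and SUDHL6 H3K4me3 was present at 93.2% (84.9 to 97.8%). At 4 to 6 kb, 168 regions had 12.6 per kb, 47.8% and 82.7% (76.2 to 88.1%). The cover by H3K4me3 depends on EZH2 width by construction, so its order over these width classes is a description.

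A wholly enclosed position was also found at higher scores. On chromosome 6 from 26536201 to 26539800, EZH2 of 3.6 kb (score 62) lay inside H3K4me3 of 3.9 kb in HT. The SUDHL6 counterpart was 4050 bp wide, and SUDHL6 H3K4me3 covered 95.8% of the EZH2 island. On chromosome 4 from 141071251 to 141075750, EZH2 of 4.5 kb (score 71) lay inside H3K4me3 of 4.95 kb in HT, and SUDHL6 had no H3K4me3 island there. These show the same arrangement in HT with and without the mark in SUDHL6.

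The regions were spread over all 22 autosomes, with a median of 2007 kb between neighbours and 55 of 618 gaps under 100 kb. They took up 12.4% (8.50 to 17.4%) of the HT H3K4me3 islands of chromosome 13, 9.07% (6.40 to 12.4%) on chromosome 15 and 8.76% (6.59 to 11.4%) on chromosome 6. The lowest share was 3.93% (2.45 to 5.95%) on chromosome 12, and the median over autosomes was 5.69%. The highest and lowest were picked from 22 autosomes, so part of their distance from the median follows from the picking. On chromosome 13, 28 of 70 HT EZH2 islands belonged to the class. HT had 233 H3K4me3 islands on that chromosome and SUDHL6 had 283.

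In windows of 10 Mb, most regions were scattered, and 227 of 293 windows held at least 1. The 10 windows with most regions held 15.0% of the class and 9.56% of HT H3K4me3 islands. They were picked by their number of regions, so part of this excess follows from the picking. The highest number, 13, lay between 140 and 150 Mb of chromosome 1, where 14 of 108 HT H3K4me3 islands (12.96%) belonged to the class. Between 50 and 60 Mb of chromosome 2 the class took 6 of 25 HT H3K4me3 islands (24%), and 3 of its 24 broadest regions lay there. Another 3 of the 24 lay between 110 and 120 Mb of chromosome 11. In the chromosome 2 window HT and SUDHL6 had 9 and 1 EZH2 islands, 9 and 1 H3K27me3 islands, and 25 and 34 H3K4me3 islands. Between 100 and 110 Mb of chromosome 11 they had 11 and 0 EZH2, 46 and 2 H3K27me3, and 64 and 32 H3K4me3 islands, so every antibody had more islands in HT. Copy number was not measured, and its part in the regions of that or any other window was not tested.

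At the edges of the choice, 6 regions overlapped H3K4me3 by 150 bp, the smallest step of the lists. The highest-scoring of them lay on chromosome 7 from 57929101 to 57931800 (score 53). Just outside, an EZH2 island on chromosome 14 from 50060101 to 50064150 (score 47) ended 150 bp from HT H3K4me3. For H3K27me3, a region on chromosome 6 from 42417901 to 42421350 lay 150 bp from the mark in HT, and an island on chromosome 1 from 148553251 to 148559700 was left out for 150 bp of overlap. For SUDHL6 EZH2, the nearest region lay 1500 bp away on chromosome 4 from 2467201 to 2472150, and an island on chromosome 16 from 87418501 to 87421800 was left out for 150 bp of overlap.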

How the data were processed

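The authors' deposited lists hold the islands of H3K27me3, EZH2 and H3K4me3 in each line, 1 list for each library. The submitters' processing notes name SICER and the build hg19, and the names of the deposited lists carry its settings: 150 bp windows, gaps up to 450 bp, FDR 1E-7. Aligner, read filters and control: not given in the sources used here. Each deposited list gives a whole-number score per island, whose normalization was not stated; it was not compared between lists. A missing island moves with depth, which is unknown.

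Overlaps of at least 1 bp were computed with Python 3.11.15, numpy 2.4.6, pandas 2.3.3 and scipy 1.17.1, and figures with matplotlib 3.10.9. Tested on 2500 simulated islands, 100% were classed rightly, and bedtools 2.31.1 gave the same 640 regions. The SUDHL6 counterpart of an H3K4me3 island is the overlapping island with most shared bases. Score percentiles are ranks within 1 autosomal list. No test was run, since each line and antibody had 1 library. Regions were named as the first 5 by EZH2 score, width, score per kb, H3K4me3 width, SUDHL6 H3K27me3 width, cover by H3K4me3 and score without SUDHL6 H3K4me3, with those at the limits; the text gives the leading ones. The class and these choices were made with earlier results of these data known. Planned gene names, gene lists and cell type markers needed hg19 gene positions and were not run.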

Additional observations from a re-analysis of the deposited data

How the results depend on the processing

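For 6 results under 7 alternatives, 42 values were recomputed. Of these, 30 stayed within 1.5 times the count or within the 95% interval of the share or median, and 12 did not. A change of sign could not be tested. Counts, shares and widths cannot be negative, and the main median log2 width ratio was 0. The alternatives for the log2 width ratio were added after seeing the data. With an overlap of at least 50% of the EZH2 island asked of every list, 415 regions were found, SUDHL6 H3K4me3 was present at 70.8% and SUDHL6 H3K27me3 at 0.964%. H3K4me3 then covered a median of 70.3% of EZH2, its median width was 2850 bp, and the median log2 width ratio was 0.0489. Keeping in every list only islands in the top 50% by score left 217 regions, a median cover of 53.1% and a median H3K4me3 width of 3450 bp. The 50% of EZH2 islands with most score per kb held 240 regions, 89.2% with SUDHL6 H3K4me3, and a median cover of 70%. The 50% overlap and the shorter lists also loosen both exclusions, of HT H3K27me3 and of SUDHL6 EZH2, so they can bring in islands from outside the 640. Islands of at least 1 kb, a distance of 5 kb from HT H3K27me3 or from SUDHL6 EZH2, and the addition of X and Y gave 610 to 641 regions. No paired analysis was possible because each line and antibody had 1 library. Depth is unknown, so absence of SUDHL6 EZH2 or of H3K27me3 means only that no island was called.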
